A study of Mus musculus with 72 samples.

Results

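The genes described here are 40 genes of the complement and coagulation systems, chosen by name and read from every mRNA probe whose transcript maps to 1 of them. All 40 were found on the array, with 54 probes, of 23787 genes that the array names. Of these genes 10 had 2 probes, and Masp2 and Kng1 had 3. A gene is given below by its brightest probe unless another probe is named.

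Liver and lung RNA came from female C57BL/6 J mice, 3 samples of each tissue at each dose, taken 48 h after a single whole body exposure to X-rays of 1 to 12 Gy, at 5 doses (1, 2, 4, 8, 12), or after sham irradiation. The mice were between 6 and 8 weeks old, and controls (0 Gy) were held in a like container without X-rays. Each of the 36 samples was hybridized to a 1-colour Agilent array of its own, and the same sample numbers occur in both tissues. A sample is called below a mouse with its number, and whether a shared number means 1 animal is not given in the sources used here.

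Complement is a set of plasma proteins that mark and lyse foreign or damaged cells. The classical and lectin routes (C1ra, C4b, Masp1, Masp2 and the mannose-binding lectins Mbl1 and Mbl2) and the alternative route (Cfb and properdin, Cfp) meet at C3, and the terminal components (Hc, which is C5, C6, C8a, C8b, C8g and C9) then form a pore in the membrane. C4bp, Cfi and vitronectin (Vtn) hold the cascade back. Coagulation is likewise a cascade of proteases. Tissue factor (F3) with F7, and the contact system of F12, plasma kallikrein (Klkb1) and kininogen (Kng1), lead through F11, F9, F10 and F5 to thrombin (F2), which turns fibrinogen (Fga, Fgb, Fgg) into a clot that F13b, the carrier subunit of factor XIII, helps to stabilise. Thrombomodulin (Thbd) and protein C (Proc) limit clotting. The plasminogen activators Plat and Plau with the urokinase receptor Plaur turn plasminogen (Plg) into the enzyme that dissolves the clot. Cpb2 slows that step, and the histidine-rich glycoprotein Hrg binds heparin, fibrinogen and plasminogen. Hepatocytes make most of these plasma proteins, while Thbd, Plat and F3 are products of endothelium and other cells outside the liver parenchyma.

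The sequence before the gene start is shown for 6 genes because the results below turn on them. They are the 4 genes called in lung that have an entry (C3, F11, Klkb1 and Masp2), Fgb, whose lung values went with the hepatocyte markers, and F3, the gene called in liver. Sequences are from RefSeq on GRCm38.p6, 250 bases upstream of the start given there, in the direction of transcription, and 30 of the 40 genes had an entry. The searched motifs, each on both strands, were the HNF1 motif GTTAAT, the HNF4 site TGNACTTTG, the C/EBP site TTGCNNAA, the STAT site TTCNNNGAA and the p53 decamer, and matched letters are in capitals.
C3, chr17:57228137-57228386, minus strand: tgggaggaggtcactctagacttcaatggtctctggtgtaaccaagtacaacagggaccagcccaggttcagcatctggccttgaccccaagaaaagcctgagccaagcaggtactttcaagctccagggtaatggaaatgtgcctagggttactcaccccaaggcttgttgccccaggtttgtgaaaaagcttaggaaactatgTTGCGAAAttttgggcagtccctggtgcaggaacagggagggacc
F11, chr8:45262032-45262281, minus strand: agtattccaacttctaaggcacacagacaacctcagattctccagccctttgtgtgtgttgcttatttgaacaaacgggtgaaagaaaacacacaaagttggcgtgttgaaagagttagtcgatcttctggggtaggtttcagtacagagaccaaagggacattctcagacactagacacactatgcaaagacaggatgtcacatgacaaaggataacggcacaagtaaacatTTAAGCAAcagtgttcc
Klkb1, chr8:45294836-45295085, minus strand: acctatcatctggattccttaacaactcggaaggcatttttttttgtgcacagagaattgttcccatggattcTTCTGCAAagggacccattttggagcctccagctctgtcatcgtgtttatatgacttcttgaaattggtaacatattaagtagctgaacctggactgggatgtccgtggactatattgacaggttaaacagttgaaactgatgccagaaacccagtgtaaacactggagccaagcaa
Masp2, chr4:148602294-148602543, plus strand: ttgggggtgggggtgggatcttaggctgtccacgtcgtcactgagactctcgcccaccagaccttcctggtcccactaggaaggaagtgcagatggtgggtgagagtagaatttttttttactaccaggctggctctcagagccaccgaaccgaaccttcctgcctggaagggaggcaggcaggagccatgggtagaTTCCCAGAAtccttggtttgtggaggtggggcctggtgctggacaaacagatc
Fgb, chr3:83049864-83050113, minus strand: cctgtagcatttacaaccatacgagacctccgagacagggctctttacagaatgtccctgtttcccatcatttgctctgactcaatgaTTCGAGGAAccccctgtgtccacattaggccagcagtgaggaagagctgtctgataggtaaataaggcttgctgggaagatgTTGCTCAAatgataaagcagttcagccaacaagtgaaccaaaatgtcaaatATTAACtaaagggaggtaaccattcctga
F3, chr3:121723287-121723536, plus strand: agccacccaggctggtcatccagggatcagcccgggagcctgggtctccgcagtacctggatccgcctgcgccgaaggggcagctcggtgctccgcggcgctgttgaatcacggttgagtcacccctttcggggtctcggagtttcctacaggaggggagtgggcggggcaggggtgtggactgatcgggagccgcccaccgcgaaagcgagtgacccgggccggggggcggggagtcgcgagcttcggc

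C3, F11 and Klkb1 each held 1 match to the C/EBP site, at -45, -17 and -177 from the start. Masp2 held 1 match to the STAT site, at -53. Fgb held 3 matches, to the STAT, C/EBP and HNF1 sites at -162, -80 and -29, and the F3 stretch held none of the 5. Among the 30 genes with an entry, 10 (33.3%) held the HNF1 motif beside 6.43% of 32851 promoters, and 9 (30.0%) the C/EBP site beside 9.56%. The STAT site was in 5 (16.7%) beside 7.02%, the p53 decamer in 4 (13.3%) beside 7.13%, and the HNF4 site in 1 (3.33%) beside 1.19%. A match describes letters only, and the Masp2 entry belongs to a start that lies inside the span of the gene (148594622 to 148615499). The F11 stretch begins at 45262032 and overlaps the span of F11, which ends at 45262055, and the match at -17 lies in that overlap. F11 and Klkb1 are neighbours on chromosome 8 of that build (45240659 to 45262055 and 45266688 to 45294835), and C4b and Cfb lie close together on chromosome 17 (34728139 to 34743902 and 34856374 to 34862514).

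Between 46.1% and 54.0% of spots were well above background on a liver array and between 54.1% and 64.0% on a lung array, and no spot was saturated. Slide and dose were tied in both tissues. In liver the 0 and 1 Gy samples and 2 of the 2 Gy samples were on slide 1, and every sample of 4 Gy or above was on slide 2 or 3. The last 2 Gy sample was on slide 2. For 4 to 12 Gy against 0 Gy in liver, slide and dose can be separated only through the 2 Gy samples. In lung the 0 and 1 Gy samples were on slide 3, the 2 and 4 Gy samples and 2 of the 8 Gy samples on slide 4, and the last 8 Gy sample with the 12 Gy samples on slide 5. On slide 5 the median spot signal was 80 to 85 against 107.5 to 124 on the other lung arrays. The array of lung 12 Gy mouse 16 stood apart with 1578 outlier spots, beside at most 600 on any other lung array. The p53 targets Cdkn1a, Mdm2, Ccng1, Phlda3, Eda2r and Bax were all higher at 12 Gy in both tissues, with median log2 changes of 2.97 in liver and 1.82 in lung. The 10 hepatocyte markers were all above background on every liver array, and 6 to 10 of them were above background on a lung array. A bulk sample cannot tell fewer cells of a type from less RNA per cell.

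In unirradiated mice the tissues differed in most of these genes. On the log2 scale, 32 of the 40 were lower in lung than in liver, by between -2.26 and -11.32, 4 were higher in lung and 4 were not called (limma, absolute log2 difference above 1 and adjusted p below 0.05, which are the thresholds for every call below). By probe 49 of 54 were called, and over all probes tested 34.8% were. The members higher in lung were thrombomodulin, the urokinase receptor, tissue factor and the tissue-type plasminogen activator, all of them proteins of cell surfaces or endothelium. Thbd measured 14.96 ± 0.31 in lung and 8.66 ± 0.51 in liver (log2 intensity, SD, n = 3), a difference of 6.30 (SE 0.21, adjusted p = 1.46e-19). Plaur differed by 4.39 (SE 0.30) and F3 by 2.59 (SE 0.18). Plat was well above background on no liver array and was at least 9.46-fold higher in lung. Hc stood at 14.40 ± 0.06 in both tissues, with a difference of 0.00 (SE 0.16), and C6 differed by 0.20 (SE 0.25). Plau differed by 0.83 (SE 0.22) and Cfp by -0.98 (SE 0.25), both short of the fold threshold, although the second Cfp probe was called at -1.60.

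The genes farthest below liver in lung were plasma proteins of the liver. F13b, C8b, C8a, F9 and Plg were well above background on none of the 0 Gy lung arrays, so only limits can be given, at least 1263-fold, 1111-fold, 460-fold, 337-fold and 215-fold lower in lung. Hrg (-11.32), Fgb (-11.31), Cpb2 (-11.24), Fga (-11.21) and Mbl2 (-11.12) had the largest measured differences. Of these, Hrg, Cpb2, Fga and Mbl2 were well above background on 2 of the 3 lung arrays at 0 Gy. Fgb was above background on all 3, with an SD of 1.58 in lung. The differences of C3 (-2.33), C4b (-2.35), C1ra (-2.26) and Cfb (-4.89) were smaller. C3 measured 15.37 ± 0.22 in lung beside 17.70 ± 0.03 in liver, and C4b 13.35 ± 0.13 beside 15.70 ± 0.11 (SD, n = 3). Over all 18 arrays of a tissue, 38 of the 40 genes were above background on every liver array, with Plaur on some and Plat on none, and 25 on every lung array. The other 15 were C4bp, C8a, C8b, C9, Cpb2, F11, F12, F13b, F9, Fga, Fgb, Hrg, Masp2, Mbl2 and Plg, above background on some lung arrays.

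**Figure D1:**
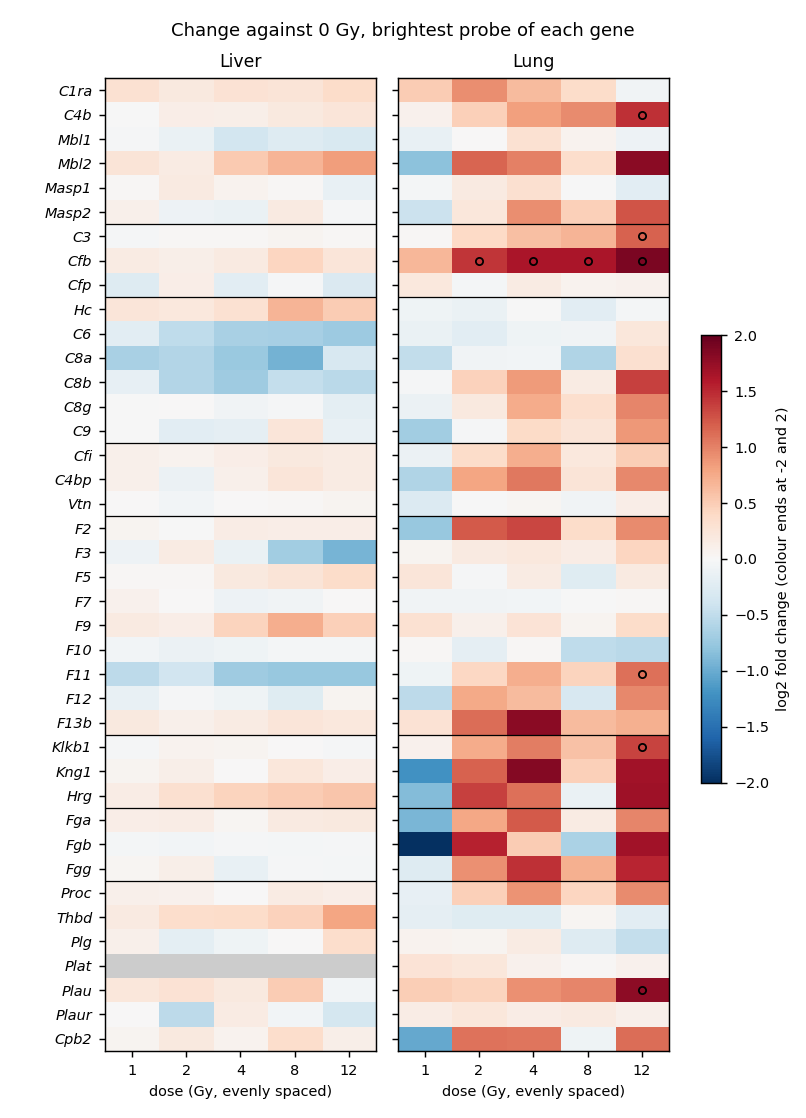
Log2 fold change against 0 Gy for the brightest probe of each of the 40 genes (rows, grouped by role between the lines) at each dose (columns, Gy) in liver and lung, 3 mice per dose, with circles on called values and grey where a probe was not measured. The liver panel has no circle and its largest changes are the decreases of C8a at 8 Gy and F3 at 12 Gy, and the circles in lung stand on Cfb from 2 to 12 Gy and on C3, C4b, Klkb1, Plau and F11 at 12 Gy.

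The first dose comparison asks how far the liver changed its own plasma proteases. In liver none of the 53 probes tested, which stand for 39 genes, was called at any dose. Of all probes, 0.0339% were called at 1 Gy, 0.245% at 2 Gy, 0.944% at 4 Gy, 2.2% at 8 Gy and 2.06% at 12 Gy. At an unadjusted p below 0.05, 3, 6, 15, 19 and 18 of the 53 passed in the same order of doses. The share of all probes at that unadjusted p was not counted, so these counts have no background beside them. Without the fold threshold, 5 passed an adjusted p of 0.05 at 4 Gy, 9 at 8 Gy and 9 at 12 Gy, beside 3.31%, 9.9% and 7.01% of all probes. In the fit of a linear trend over dose, given as the log2 change over 12 Gy, 1 probe (F3) was called where 2.02% of all were, and 9 passed at any size, 7 higher and 2 lower, where 9.51% of all did. The median change of the 53 probes lay between 0.03 and 0.15 at the 5 doses, and that of all probes between -0.003 and 0.01.

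Tissue factor, which starts the extrinsic route of clotting, was the 1 gene called in liver. Its log2 intensities in the 3 mice of each dose were 9.38, 9.52 and 9.80 at 0 Gy, 9.27, 9.50 and 9.61 at 1 Gy, 9.61, 9.83 and 9.74 at 2 Gy, 9.33, 9.62 and 9.37 at 4 Gy, 8.25, 9.10 and 9.26 at 8 Gy, and 8.65, 8.71 and 8.55 at 12 Gy. All 6 mice at 8 and 12 Gy lay below all 3 controls, and the lower doses overlapped the controls. F3 fell by 0.93 at 12 Gy (SE 0.21, adjusted p = 0.0137), short of the fold threshold, and by 1.04 over the trend (SE 0.17, adjusted p = 0.000849), a change of 2.06-fold. Without 8 Gy mouse 5, the lowest value, the trend was -0.94, below the fold threshold, and with slide as a fixed term it was -1.26 (adjusted p = 0.140). Markers of endothelium and of fibroblasts had median changes of -0.67 and -0.72 in liver at 12 Gy. Of these, 3 of 6 and 2 of 5 were lower at any size, where 7.01% of all probes passed, and their part in the result was not tested. F11, the protease that activates F9, also fell, from 13.29, 13.30 and 13.42 at 0 Gy to 12.88, 13.00 and 12.56 at 1 Gy, 12.86, 12.84 and 13.16 at 2 Gy, 12.78, 12.51 and 12.56 at 4 Gy, 12.58, 12.33 and 12.80 at 8 Gy and 12.47, 12.75 and 12.50 at 12 Gy. All 15 irradiated mice lay below the 3 controls. The change was -0.76 at 12 Gy (SE 0.15, adjusted p = 0.00663). At the lower doses it was -0.52 at 1 Gy and -0.38 at 2 Gy, neither of which passed, and -0.72 at 4 Gy.

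Among the recognition proteins of complement, mannose-binding lectin Mbl2 rose in liver with dose. It measured 16.00, 16.32 and 16.39 at 0 Gy, 16.59, 16.51 and 16.37 at 1 Gy, 16.64, 16.60 and 15.98 at 2 Gy, 16.80, 16.74 and 16.75 at 4 Gy, 16.81, 17.08 and 16.86 at 8 Gy, and 17.07, 17.07 and 17.06 at 12 Gy. From 4 Gy on all 9 mice lay above the controls. The change was 0.83 at 12 Gy (SE 0.16, adjusted p = 0.00541), which is 1.78-fold, and 0.79 over the trend (SE 0.13, adjusted p = 0.000954). Mbl1, the other mannose-binding lectin, had -0.30 at 12 Gy (adjusted p = 0.30) and did not pass.

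Masp2 is the protease that travels with these lectins, and its probes differed in liver. Probe A_52_P569276, designed on another RefSeq transcript of the gene than the brighter probes and named here after its values were seen, rose from 11.07, 10.97 and 11.11 at 0 Gy through 11.29, 11.17 and 11.35 at 1 Gy, 11.61, 11.33 and 11.61 at 2 Gy, 11.71, 11.85 and 11.65 at 4 Gy and 11.76, 11.93 and 12.07 at 8 Gy to 12.18, 12.01 and 11.86 at 12 Gy. All 15 irradiated mice lay above the controls, with 0.97 at 12 Gy (SE 0.12, adjusted p = 0.000302). The other probes, A_55_P2185504 and A_55_P1990500, gave -0.02 (SE 0.10) and -0.01 (SE 0.09) at 12 Gy.

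**Figure D2:**
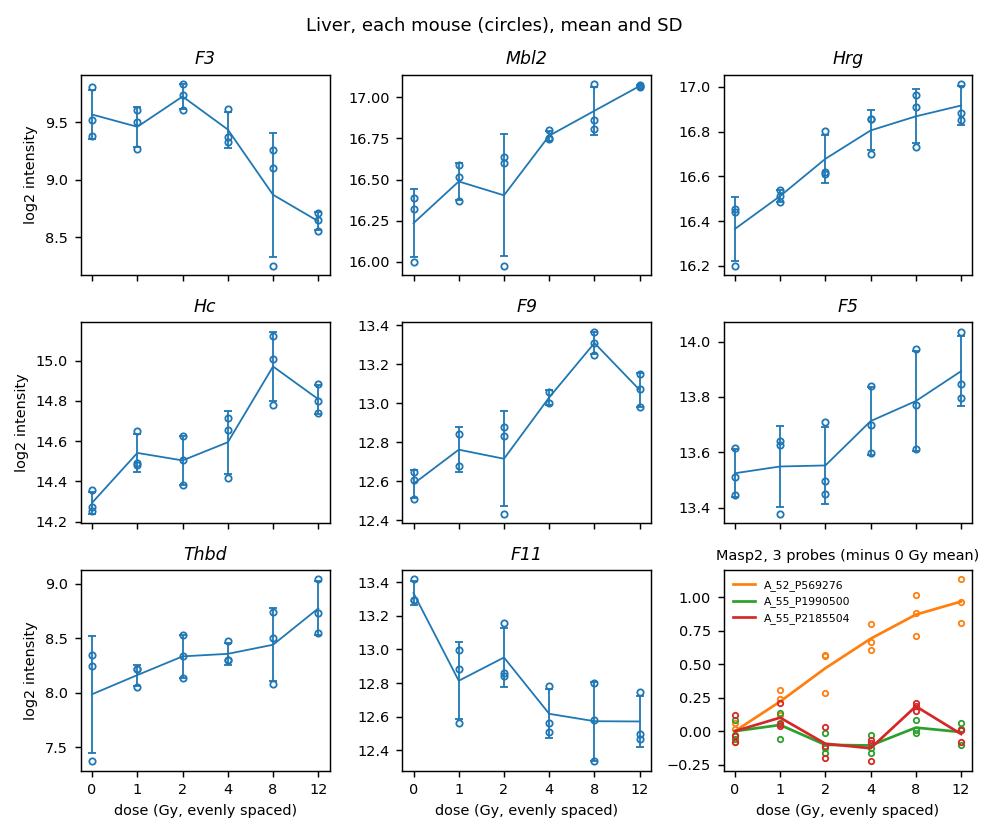
Log2 intensity in liver (vertical axis) against dose (horizontal axis, Gy, evenly spaced) for 8 named genes and, in the last panel, for the 3 Masp2 probes as the difference from their 0 Gy mean; circles are mice (3 per dose unless a spot was set to missing) and bars show the mean and SD. F3 and F11 go down, Mbl2, Hrg, Hc and F9 go up, and of the Masp2 probes A_52_P569276 goes up while the others show no climb with dose.

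C5, encoded by Hc and split to give an inflammatory peptide and the base of the pore, measured 14.36, 14.26 and 14.27 in liver at 0 Gy, 14.48, 14.65 and 14.49 at 1 Gy, 14.63, 14.51 and 14.38 at 2 Gy, 14.65, 14.71 and 14.42 at 4 Gy, 15.01, 15.12 and 14.78 at 8 Gy, and 14.80, 14.74 and 14.88 at 12 Gy. All 15 irradiated mice lay above the controls. The change was 0.68 at 8 Gy (SE 0.12, adjusted p = 0.00303) and 0.51 at 12 Gy (adjusted p = 0.0144). The other terminal components did not go with it. C8b passed at 4 Gy with -0.72 (SE 0.15, adjusted p = 0.020) and at 12 Gy with -0.54 (adjusted p = 0.0454), and its second probe gave -0.75 and -0.60. C8a passed at 8 Gy alone, with -0.94 (SE 0.28, adjusted p = 0.0475). The second C8a probe read 9.67, 9.40 and 9.65 at 0 Gy and 9.30, 9.53 and 9.38 at 8 Gy, and did not pass there. C6 had -0.73 at 12 Gy (adjusted p = 0.11), C8g -0.19 and C9 -0.15, and none of these 3 passed.

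Hrg measured 16.44, 16.20 and 16.46 in liver at 0 Gy, 16.51, 16.54 and 16.48 at 1 Gy, 16.80, 16.61 and 16.62 at 2 Gy, 16.70, 16.86 and 16.86 at 4 Gy, 16.73, 16.91 and 16.96 at 8 Gy, and 16.85, 16.89 and 17.01 at 12 Gy. All 15 irradiated mice lay above the controls, with 0.55 at 12 Gy (SE 0.11, adjusted p = 0.00571). Factor IX, whose loss causes haemophilia B, measured 12.60, 12.51 and 12.65 at 0 Gy, 12.68 and 12.84 at 1 Gy, 12.88, 12.43 and 12.83 at 2 Gy, 13.06 and 13.00 at 4 Gy, 13.25, 13.37 and 13.31 at 8 Gy, and 13.07, 12.98 and 13.15 at 12 Gy, with 1 spot set to missing at each of 1 and 4 Gy. The mice at 4, 8 and 12 Gy lay above the controls, with 0.72 at 8 Gy (SE 0.12, adjusted p = 0.00414) and 0.48 at 12 Gy (adjusted p = 0.034).

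Factor V, the cofactor of F10, measured 13.62, 13.44 and 13.51 at 0 Gy, 13.64, 13.63 and 13.38 at 1 Gy, 13.71, 13.50 and 13.45 at 2 Gy, 13.70, 13.60 and 13.84 at 4 Gy, 13.61, 13.97 and 13.77 at 8 Gy, and 13.85, 13.80 and 14.04 at 12 Gy. Thrombomodulin measured 8.24, 7.37 and 8.34 at 0 Gy, 8.21, 8.05 and 8.22 at 1 Gy, 8.13, 8.33 and 8.53 at 2 Gy, 8.47, 8.29 and 8.30 at 4 Gy, 8.50, 8.74 and 8.08 at 8 Gy, and 8.55, 8.73 and 9.04 at 12 Gy. For both, the 12 Gy mice lay above the controls and the 8 Gy mice overlapped them. Both passed over the trend, F5 with 0.38 (SE 0.10, adjusted p = 0.0163) and Thbd with 0.65 (SE 0.18, adjusted p = 0.0244), and at 12 Gy alone neither did, with adjusted p = 0.0973 and 0.0542.

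None of the liver trends named here passed with slide as a fixed term. Beside F3, that fit gave 1.02 for Mbl2 (adjusted p = 0.112), 0.71 for Hc (adjusted p = 0.179), 0.33 for Hrg (adjusted p = 0.518) and 0.41 for F9 (adjusted p = 0.499). It gave 0.37 for F5 (adjusted p = 0.460), 0.21 for Thbd (adjusted p = 0.849) and -0.70 for F11 (adjusted p = 0.368). With slide as a random block the trends of Thbd (0.63, adjusted p = 0.0629) and F11 (-0.57, adjusted p = 0.0611) did not pass, and those of F3, Mbl2, Hc, Hrg, F9 and F5 did.

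The other genes of the liver stood close to their controls. C3 lay between 17.93 and 18.13 on all 18 arrays and Fgb between 18.28 and 18.56, and at 12 Gy their changes were 0.02 (SE 0.09) and -0.03 (SE 0.10). For the fibrinogen chains the 4 probes ranged from -0.04 to 0.54 at 12 Gy and none passed. Thrombin (F2) had 0.14 (SE 0.08), Vtn 0.06 (SE 0.08) and F10 -0.04 (SE 0.10). Cfb, which leads the lung results below, passed in liver at 8 Gy with 0.42 (SE 0.13, adjusted p = 0.0463) and had 0.24 at 12 Gy (adjusted p = 0.30). The hepatocyte markers, summed, lay between 21.11 and 21.26 on every liver array. Quantile normalization gives all arrays of a tissue the same distribution, which leaves very bright probes such as these, C3 and Fgb little room to differ.

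In lung the complement genes Cfb, C3 and C4b rose, while C1ra of the classical route and Cfp of the alternative route had -0.07 (SE 0.29) and 0.08 (SE 0.28) at 12 Gy and did not pass. None of the 53 probes tested was called at 1 Gy, where 0.0227% of all probes were. There 3 of the 53 passed an unadjusted p of 0.05, a count with no share of all probes beside it. At 2, 4, 8 and 12 Gy, 2, 3, 2 and 7 were called, all of them higher, where 0.446%, 1.46%, 2.51% and 7.29% of all probes were. Calls of higher intensity alone were 0.0705%, 0.246%, 0.528% and 3.02% of all probes at these doses. Over the dose trend 6 were called, again all higher, where 7.02% of all probes were called and 2.7% were called higher. Without the fold threshold 7, 6 and 9 passed at 4, 8 and 12 Gy and 9 over the trend, where 2.18% of all probes did at 4 Gy, 4.25% at 8 Gy, 21.4% at 12 Gy and 30.7% over the trend. The median change of the 53 probes, in order of dose, was -0.08, 0.40, 0.70, 0.19 and 0.69, and that of all probes 0.01, 0.01, 0.04, 0.04 and 0.09.

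Factor B, the protease of the alternative pathway C3 convertase, was the gene called at the lowest dose. Its log2 intensities in lung were 11.27, 11.93 and 11.90 at 0 Gy, 12.25, 12.43 and 12.41 at 1 Gy, 12.78, 13.43 and 13.19 at 2 Gy, 12.90, 13.24 and 13.84 at 4 Gy, 13.43, 13.17 and 13.39 at 8 Gy, and 13.43, 13.84 and 13.46 at 12 Gy. All 15 irradiated mice lay above the 3 controls. The change was 1.43 at 2 Gy (SE 0.24, adjusted p = 0.010), 1.63 at both 4 and 8 Gy (adjusted p = 0.00126 and 0.000631) and 1.88 at 12 Gy (adjusted p = 0.000128), a 3.67-fold rise. The 0.66 at 1 Gy did not pass (adjusted p = 0.72). The call at 2 Gy was lost with slide as a random block (adjusted p = 0.206), with the arrays of these doses alone (adjusted p = 0.163) and without 2 Gy mouse 13 (1.28, adjusted p = 0.0656) or mouse 23 (1.41, adjusted p = 0.0661). The second Cfb probe was called at the same 4 doses, with 1.30, 1.51, 1.28 and 1.25, and over the trend it had 0.81 (adjusted p = 0.073) beside 1.46 (adjusted p = 0.00229) for the first.

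C3, the component on which all routes converge, measured 15.85, 15.44 and 15.47 in lung at 0 Gy, 15.46, 15.69 and 15.70 at 1 Gy, 15.91, 16.02 and 16.03 at 2 Gy, 16.39, 16.03 and 16.12 at 4 Gy, 16.30, 16.07 and 16.42 at 8 Gy, and 16.64, 16.89 and 16.79 at 12 Gy. From 2 Gy on all 12 mice lay above the controls, and the 3 mice at 12 Gy lay above every other lung sample. The change at 12 Gy was 1.19 (SE 0.16, adjusted p = 0.000147), or 2.28-fold, and the second probe gave 0.84 (adjusted p = 0.00426), short of the fold threshold. C4b, which C1 and the lectin proteases cleave to build the classical convertase, followed the same order. It measured 13.67, 13.50 and 13.46 at 0 Gy, 13.60, 13.74 and 13.54 at 1 Gy, 13.86, 14.14 and 14.04 at 2 Gy, 14.49, 14.27 and 14.31 at 4 Gy, 14.47, 14.29 and 14.71 at 8 Gy, and 15.01, 15.17 and 14.84 at 12 Gy. Its change was 1.47 at 12 Gy (SE 0.15, adjusted p = 1.16e-05), or 2.76-fold, with 0.79 (adjusted p = 0.00474) on the second probe. Mice carry a near-identical gene, C4a, and the probes may read both.

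Urokinase, encoded by Plau, was the 1 gene of fibrinolysis called. It measured 9.12, 9.19 and 9.38 in lung at 0 Gy, 9.63, 9.75 and 9.79 at 1 Gy, 9.77, 9.57 and 9.68 at 2 Gy, 9.83, 10.16 and 10.42 at 4 Gy, 10.06, 9.96 and 10.57 at 8 Gy, and 10.82, 11.33 and 10.89 at 12 Gy. All 15 irradiated mice lay above the controls and the 12 Gy mice above every other lung sample. The change was 0.91 at 4 Gy (adjusted p = 0.0191), 0.97 at 8 Gy (adjusted p = 0.00685) and 1.78 at 12 Gy (SE 0.19, adjusted p = 2.5e-05), or 3.44-fold. The second Plau probe was above background on 1 lung array in all, so it gives no usable value. The receptor Plaur had 0.10 at 12 Gy (SE 0.20), Plat 0.09 (SE 0.21) and Thbd -0.21 (SE 0.25).

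**Figure D3:**
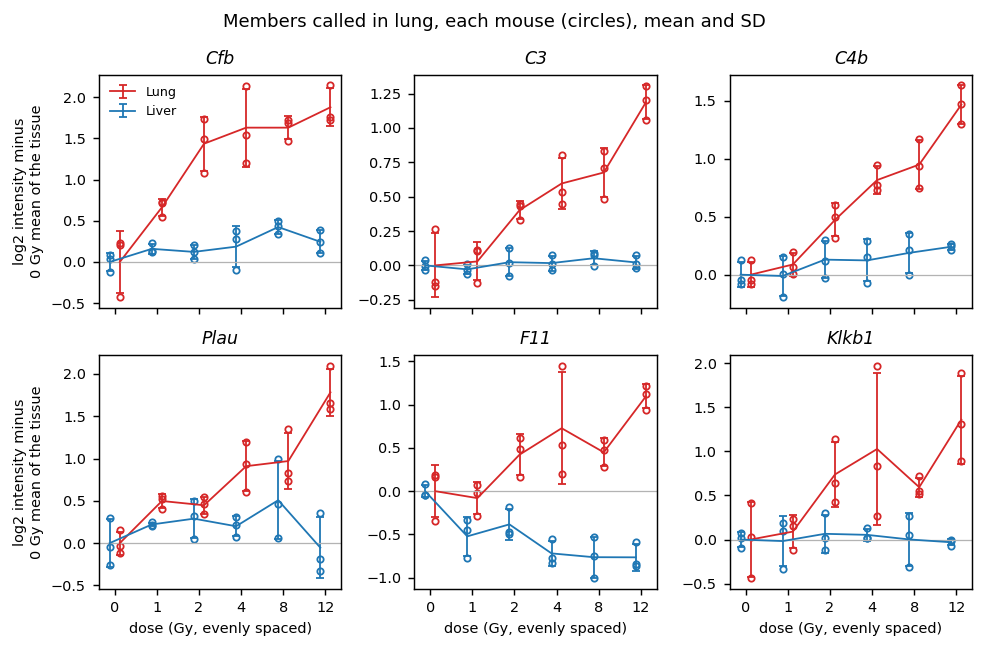
Log2 intensity minus the 0 Gy mean of the tissue (vertical axis) against dose (horizontal axis, Gy, evenly spaced) for 6 genes called in lung, in lung (red) and liver (blue); circles are mice, 3 per dose, and bars show the mean and SD. Cfb, C3, C4b and Plau in lung climb to means of 1.88, 1.19, 1.47 and 1.78 at 12 Gy while liver stays between -0.05 and 0.24 at that dose.

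The contact system gene Klkb1 and its neighbour F11 were also called in lung at 12 Gy. Klkb1 measured 7.48, 7.09 and 6.63 at 0 Gy, 7.22, 6.95 and 7.30 at 1 Gy, 8.21, 7.49 and 7.71 at 2 Gy, 7.91, 7.34 and 9.04 at 4 Gy, 7.59, 7.78 and 7.61 at 8 Gy, and 7.96, 8.95 and 8.37 at 12 Gy. The 12 Gy mice lay above the controls, and the highest value of all was that of 4 Gy mouse 24. The change at 12 Gy was 1.36 (SE 0.36, adjusted p = 0.0151). The call was lost without 0 Gy mouse 21 (1.14, adjusted p = 0.066) or 12 Gy mouse 16 (1.101, adjusted p = 0.074). The second probe was called at 4 Gy instead, with 1.42 (adjusted p = 0.0136), a call lost without any of 4 mice (1.11 to 1.40).

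F11 measured 5.33, 5.29 and 4.79 at 0 Gy, 4.84, 5.12 and 5.20 at 1 Gy, 5.62, 5.30 and 5.75 at 2 Gy, 5.66, 5.34 and 6.58 at 4 Gy, 5.41, 5.73 and 5.61 at 8 Gy, and 6.35, 6.26 and 6.08 at 12 Gy. It was well above background on 2 of 3 arrays at 0 Gy, on 0 of 3 at 1 Gy, on 2 of 3 at 8 Gy and on all 3 at 2, 4 and 12 Gy, so the lower levels sit at the edge of detection. The 12 Gy mice lay above the controls, with 1.09 (SE 0.26, adjusted p = 0.00826), and without 0 Gy mouse 21 the change was 0.92, below the fold threshold. With a normexp offset of 50 it was 0.56 (adjusted p = 0.0113), and the call was lost. In liver the same probe passed in the other direction, as given above.

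Masp2 was called in lung over the trend alone, at 1.29 (SE 0.44, adjusted p = 0.0324). It measured 5.02, 5.23 and 5.52 at 0 Gy, 4.93, 4.74 and 4.83 at 1 Gy, 5.55, 5.11 and 5.78 at 2 Gy, 5.44, 5.24 and 7.91 at 4 Gy, 5.10, 6.26 and 5.86 at 8 Gy, and 6.35, 7.15 and 6.02 at 12 Gy, and it was above background on 1 of 3 arrays at 0 Gy and on none at 1 Gy. The call depended on 4 single mice, 12 and 22 at 1 Gy and 6 and 16 at 12 Gy, without each of which it was lost (1.06 to 1.34, adjusted p = 0.052 to 0.132), and the other probes of the gene had 0.49 and 0.21 over the trend. Of the genes with no call in lung, F10 had the smallest trend p. It measured 9.86, 10.22 and 9.95 at 0 Gy, 9.99, 10.06 and 10.06 at 1 Gy, 9.33, 10.33 and 9.84 at 2 Gy, 9.97, 9.35 and 10.78 at 4 Gy, 9.86, 9.40 and 9.25 at 8 Gy, and 9.11, 9.85 and 9.45 at 12 Gy, with the 12 Gy mice below the controls and every other dose overlapping them. The trend of -0.61 over the trend did not pass (SE 0.24, adjusted p = 0.0631).

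Because slide and dose cannot be told apart in lung for 2 to 12 Gy against 0 Gy, the differences within a slide are given for 4 of the genes called. On slide 3, 1 Gy minus 0 Gy was 0.66 for Cfb, 0.50 for Plau, 0.09 for C4b and 0.03 for C3. On slide 4, 4 Gy minus 2 Gy was 0.19, 0.46, 0.34 and 0.19 for these genes in the same order, and 8 Gy minus 2 Gy was 0.16, 0.33, 0.37 and 0.19. On slide 5, 12 Gy minus the 1 sample at 8 Gy was 0.19, 0.44, 0.30 and 0.35. Each of these differences was above 0, for genes called on these same arrays, and both slide 4 differences share the 2 Gy samples. The other called genes were below 0 once each on their brightest probes and otherwise above it. F11 had -0.08 and Masp2 -0.42 on slide 3, and Klkb1 had -0.12 for 8 Gy minus 2 Gy. The second Klkb1 probe was above 0 only for 4 Gy minus 2 Gy (0.72), with -0.37 on slide 5. With slide as a fixed term 0 of the 53 probes were called over the lung trend, where 0.305% of all probes were, and the trend of Cfb was 0.56, of Plau 0.89, of C4b 0.74 and of C3 0.51. With slide as a random block the 12 Gy changes of Cfb, C3, C4b and Plau stayed called, at 1.86, 1.15, 1.42 and 1.70, and those of F11 and Klkb1 were not (adjusted p = 0.0978 and 0.134). T cell and B cell markers fell in the same lungs, with medians of -4.02 and -4.67 at 12 Gy and all 6 of each called lower, and their part in these results was not tested.

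Many of the liver-made members varied in lung from mouse to mouse together with markers of hepatocytes. The summed log2 intensity of the 7 hepatocyte markers measured on every lung array lay at 9.64 to 11.78 at 0 Gy, 9.35 to 9.46 at 1 Gy, 11.51 to 12.69 at 2 Gy, 10.49 to 15.66 at 4 Gy, 10.41 to 13.08 at 8 Gy and 11.53 to 13.60 at 12 Gy. The 10 markers as a list had a median change of 1.31 at 12 Gy, with 1 called (Tat). Tat is among the 7 summed markers and was raised in samples where others were low. It read 7.38 to 7.83 at 0 Gy and 9.54 to 9.63 in 4 Gy mice 4 and 14 and 8 Gy mice 5 and 25. Ambp read 4.87 to 5.79 in those same samples. The summed level thus holds a rise of Tat, in which dose and slide cannot be told apart. The part of Tat in the results below was not tested. The beta chain of fibrinogen shows the spread, with 5.55, 7.84 and 8.996 at 0 Gy, 5.53, 4.94 and 4.56 at 1 Gy, 9.88, 8.28 and 8.83 at 2 Gy, 5.30, 5.50 and 13.10 at 4 Gy, 4.74, 10.06 and 5.67 at 8 Gy, and 9.62, 10.52 and 7.31 at 12 Gy. Its 12 Gy change of 1.69 carried an SE of 1.74.

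The 4 Gy mouse 24 held the highest hepatocyte marker level and the highest lung value of 24 of the 40 genes, F2, F13b, Hrg and Mbl2 among them. The terminal components C8g and C9, regulators C4bp and Cfi, Proc and the kininogen probes were among those highest in that sample as well. Split at the median of that marker level, the 9 higher lung arrays lay above all 9 lower ones for C4bp, Hrg and Mbl2. Of the genes called at 12 Gy, Klkb1 and F11 were also highest in 4 Gy mouse 24. Cfb, C3, C4b and Plau were highest in 12 Gy mouse 16, the array with the most outlier spots and the next highest marker level (13.60), and C3 spanned 15.44 to 16.42 on the lower arrays and 15.47 to 16.89 on the higher.

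With the hepatocyte marker level as a covariate in the lung fit, chosen after seeing the data, 10 probes were called at 12 Gy, 6 higher and 4 lower. That level includes Tat, so it is not a measure of hepatocyte RNA alone. The 6 were C3 (1.27), C4b (1.51), Plau (1.67), Klkb1 (1.02) and both Cfb probes (1.68 and 1.09), and F11 fell below the fold threshold at 0.84. The lower ones were Fgb (-1.09), the second Fga probe (-1.73) and 2 Kng1 probes (-1.12 and -1.06), none of which had been called without it. Over the trend the covariate left C3, C4b, Cfb and Plau called (1.08, 1.34, 1.18 and 1.42) and brought 4 lower calls, for Fga (-1.29), Fgb (-1.15) and 2 Kng1 probes (-1.47 and -1.12). Klkb1 (0.66, adjusted p = 0.079) and Masp2 (0.53, adjusted p = 0.0769) were not called. Among the 9 arrays with the lower marker level, a choice also made after seeing the data, which hold no 2 or 12 Gy sample, 2 probes were called over the trend.

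**Figure D4:**
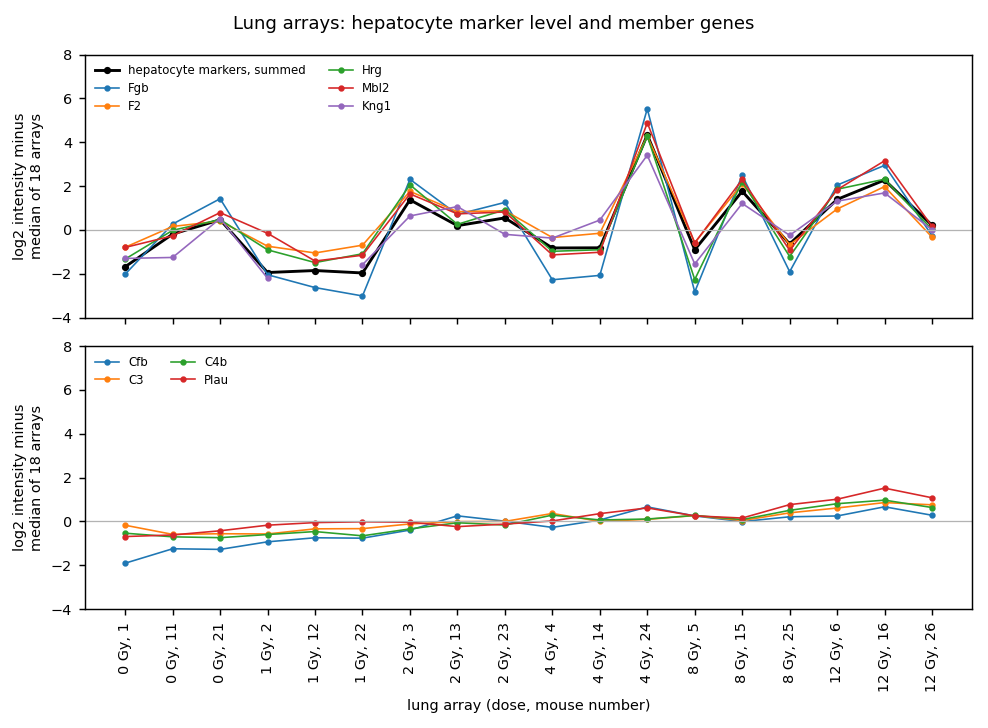
Log2 intensity minus the median of 18 lung arrays (vertical axis) for each lung array in order of dose (horizontal axis, dose and mouse number); the upper panel shows the summed hepatocyte markers (black) with Fgb, F2, Hrg, Mbl2 and Kng1, the lower panel Cfb, C3, C4b and Plau, and 1 missing spot leaves a gap. The upper lines peak together at 4 Gy mouse 24, and the lower lines climb with dose and show no peak there of that size.

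The tissues were compared by the difference of their dose trends in a fit of all 36 arrays. The dose trend was higher in lung than in liver for 7 of the 54 probes and lower for 0, where 7.19% of all probes were called in either direction. These 7 were C3 (1.17), C4b (1.19), Cfb (1.46), F11 (1.26), F3 (1.32), Klkb1 (1.07) and Plau (1.66), each as the lung trend minus the liver trend in log2 over 12 Gy. For F3 the difference came from a liver trend of -1.04 beside a lung trend of 0.31 (SE 0.14, adjusted p = 0.0904), and for F11 the tissues passed in opposite directions, with -0.59 and 0.96, although the liver trend did not pass with slide in the fit. The lung side of F11 is limited as well. It was well above background on 13 of 18 lung arrays, and its 12 Gy change did not pass with slide as a random block. F3 in lung lay between 12.86 and 13.54, with the spot of 12 Gy mouse 16 set to missing. Short of the fold threshold, the difference was negative for Hc (-0.66, adjusted p = 0.0159) and Plg (-0.75, adjusted p = 0.0359). Plg was well above background on 1 of the 18 lung arrays and on none at 0 Gy, so its lung trend gives no usable value.

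**Figure D5:**
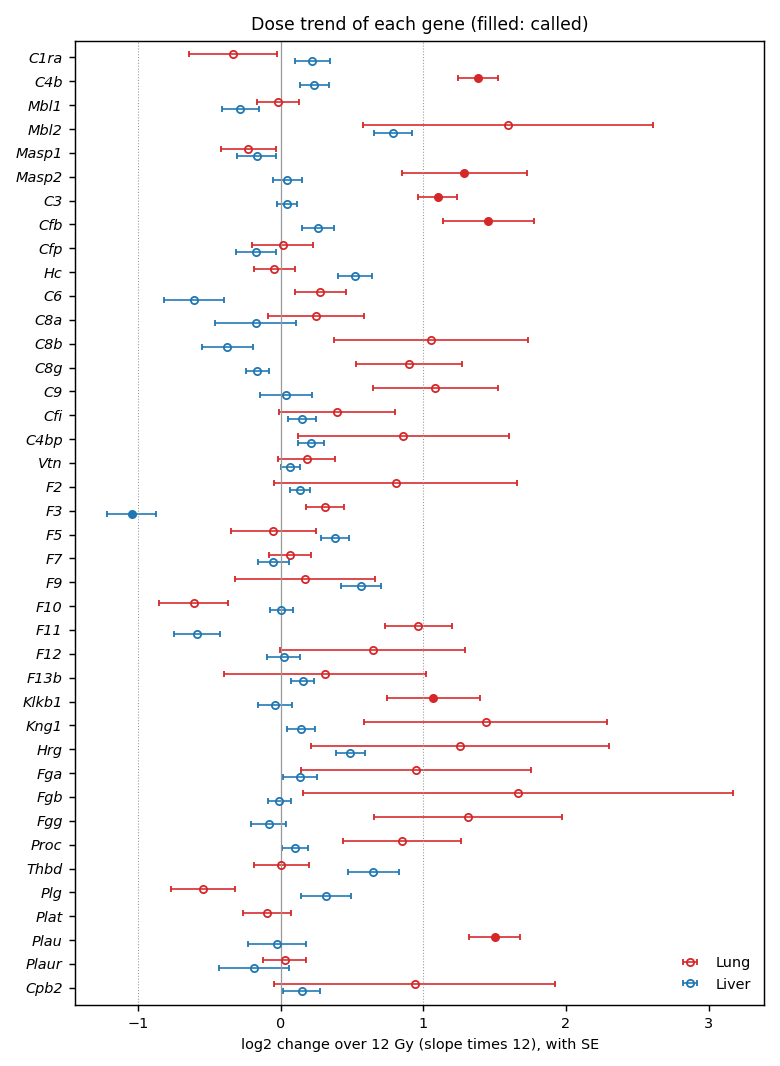
Dose trend as the log2 change over 12 Gy (horizontal axis, slope times 12, with SE) of the brightest probe of each of the 40 genes (vertical axis) in lung (red) and liver (blue), 18 arrays per tissue, with called trends filled and dotted lines at -1 and 1. Filled lung points stand at C4b, Cfb, C3, Klkb1, Plau and Masp2, the filled liver point at F3, and the widest bars belong to liver-made genes measured in lung.

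By role, the calls in lung at 12 Gy were in complement amplification (3 of 6 probes, Cfb on both its probes and C3), complement initiation (1 of 9, C4b), the contact system (1 of 6, Klkb1), coagulation factors (1 of 9, F11) and the anticoagulant and fibrinolytic genes (1 of 8, Plau), where 7.29% of all probes were called and 3.02% were called higher. No probe of the terminal pathway (0 of 8), the complement regulators (0 of 3) or fibrinogen (0 of 4) was called, with median changes of 0.42, 0.50 and 1.25. In these roles F12 was counted with the coagulation factors, and Hrg with Klkb1 and Kng1 in the contact system. In liver the medians of the 8 roles lay between -0.26 for the terminal pathway and 0.20 for complement initiation at 12 Gy.

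Other genes of the same systems give the surroundings. Of 27 further complement genes, among them the C1q chains, C2 and the receptors, 0 were called higher by limma in either tissue at 12 Gy, and without the fold threshold 1 was higher and 6 were lower in liver, and 5 were higher and 3 lower in lung, where 7.01% and 21.4% of all probes passed. Cr2, a complement receptor of B cells, was lower in both, with -1.01 in liver and -4.30 in lung, and Itgax, a subunit of complement receptor 4, was lower in liver with -1.64. Of the B cell markers 6 of 6 in lung and 4 of 6 in liver were called lower at 12 Gy, with medians of -4.67 and -2.76, and their part in the Cr2 result was not tested. Of 25 further genes of coagulation, Pros1, the protein S that assists protein C, was higher in lung by 1.28 (SE 0.18, adjusted p = 0.000256) and Tfpi, the inhibitor of the tissue factor route, was lower in liver, with -1.04 (SE 0.15, adjusted p = 0.000829).

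Of 14 acute phase genes that are not among the 40, 4 were called in liver at 12 Gy, Saa1 (3.84), Saa2 (3.83), Saa3 (1.22) and Lcn2 (1.08), and 3 in lung, Saa3 (3.02), Saa1 (2.24) and Fgl1 (1.63), all higher. In liver 11 of the 14 and in lung 4 passed at any size, with medians of 0.68 and 0.51. Of all probes, 2.06% in liver and 7.29% in lung were called at 12 Gy, and 7.01% and 21.4% passed at any size. The platelet and megakaryocyte markers had medians of -0.02 in liver and -0.76 in lung at 12 Gy, with no call, and Kupffer cell markers -0.60 in liver, where 4 of 7 were lower at any size.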

How the data were processed

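Labelled poly(A)-amplified RNA of each liver and lung sample was read on an Agilent mouse expression array, and per the labels the authors deposited the scanner output of Agilent Feature Extraction, whose spot intensity and background intensity were used here. The authors also deposited processed intensity values, used as alternatives, and how their table of series values was scaled is not given in the sources used here. Background was corrected with normexp (offset 0) on all spots, control spots were removed and outlier spots set to missing, and log2 intensities were quantile normalized within each tissue, or over all 36 arrays where tissues were compared. Spots of a probe were averaged, and a probe was tested if 1 array or more showed it well above background. The lung and liver fits used limma 3.58.1 in R 4.3.3, with the doses against 0 Gy, a linear dose trend times 12, and Benjamini-Hochberg adjustment over all probes. A call needed an absolute log2 change above 1 and an adjusted p below 0.05.

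Values in every mouse are given for genes with a called probe in that tissue, filled up to 8 genes by the smallest trend p. The members and lists were chosen with earlier results of these data known. Each sample gave 1 array, with 3 samples a dose. In the main fits, the p-value of a dose rests on a spread within doses shared by all 18 arrays of a tissue. The p-value of a trend rests on the spread of those arrays around a line, and that of the trend difference on all 36 arrays. With so few arrays, the estimates are imprecise. Same-numbered liver and lung samples were checked for pairing: their deviations from the group means correlated at -0.05 to 0.05 and 0 of 18 pairs exceeded 0.1. The fits were also run on simulated arrays with known changes and independent noise. Those arrays held no slide effect and no shared hepatocyte signal, so that run cannot speak to either. The alternatives were other background offsets, scalings, filters and probe averaging, slide as a term or a random block, log dose, fits of 2 doses alone, and each array left out in turn.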

Additional observations from a re-analysis of the deposited data

Results flagged for a closer look

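The dose trend differed between lung and liver, by a test of the difference itself in all 36 arrays, for 7 probes. The lung trend exceeded the liver trend by 1.17 for C3 (SE 0.15, limma adjusted p = 7.82e-06), 1.19 for C4b (SE 0.18, adjusted p = 4.87e-05), 1.46 for Cfb (SE 0.39, adjusted p = 0.00885) and 1.66 for Plau (SE 0.28, adjusted p = 0.000153), as log2 over 12 Gy. It exceeded it by 1.26 for F11 (SE 0.24, adjusted p = 0.000557), 1.32 for F3 (SE 0.23, adjusted p = 0.000176) and 1.07 for Klkb1 (SE 0.36, adjusted p = 0.0336). With slide as a fixed term 0 of these differences were called, and in that design lung doses of 2 Gy and above share no slide with lung 0 Gy.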

How the results depend on the processing

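Of 298 recomputed counts of called probes, 261 stayed within 1.5 times the reported count and 37 did not. Counting an adjusted p below 0.05 at any size gave 5, 9 and 9 probes in liver at 4, 8 and 12 Gy and 9 over the liver trend in place of 0, 0, 0 and 1, 7 and 6 in lung at 4 and 8 Gy in place of 3 and 2, and 11 for the trend difference in place of 7. With slide as a fixed term 1 probe was called in liver at 8 Gy and 1 at 12 Gy, and 0 over the liver trend, the lung trend and the trend difference; in lung this term can be fitted for 1 Gy and the trend alone. With slide as a random block 0, 1 and 1 were called in lung at 2, 4 and 8 Gy, and with the arrays of 2 doses alone 0, 0 and 1. Averaging the probes of a transcript gave 2 for the lung trend and 4 for the trend difference. A normexp offset of 50 and fitting both tissues together each gave 0 for the liver trend, the latter 4 in lung at 8 Gy, and no filter on dim probes 1 in lung at 2 Gy. The hepatocyte covariate gave 1 at 2 Gy, and the 9 arrays with less of that signal 0 at 4 Gy, 1 at 8 Gy and 2 over the lung trend. The trend of the second Klkb1 probe in lung turned from 0.69 to -0.47 with slide as a fixed term. The cause of these changes was not tested. Leaving out 1 array at a time gave 0 to 1 in liver at 8 Gy, at 12 Gy and over the trend, 0 at 1, 2 and 4 Gy in liver and 1 Gy in lung, and 0 to 2, 2 to 4, 2 to 4 and 5 to 7 in lung at 2, 4, 8 and 12 Gy. It gave 4 to 9 for the lung trend (4 without 12 Gy mouse 16, 9 without 8 Gy mouse 5), 6 to 10 for the trend difference and 49 to 50 for lung against liver. The lung 2 Gy count was 0 without 2 Gy mouse 13 or 23 and 1 without 0 Gy mouse 1 or 21, and the 8 Gy count was 4 without 8 Gy mouse 15. With the mouse number as a replicate block the counts between tissues stayed at 7 and 49; each number was its own best match in 6 of 18 mice. Of 785 recomputed values of named genes, called or not, 698 stayed on the same side of the call thresholds with the same sign, 69 lost a call, 17 gained one and 1 changed sign.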
